A study of Mus musculus with 14 samples.

Results

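Fibrinogen and the coagulation factors were followed in cultured mouse liver progenitors as 10 genes of the 12393 that the arrays measured with a probe set of 1 gene symbol. The 10 were Fga, Fgb and Fgg for the fibrinogen chains, F2, F5, F7 and F10 for procoagulant factors, Proc and Serpinc1 for anticoagulant proteins, and Plg for plasminogen. They were taken by gene symbol, and where a gene had several probe sets the brightest on average over the 14 arrays stood for it. The cells were hepatoblasts, fetal liver progenitors that can become hepatocytes or bile duct cells, taken from WT embryos on embryonic day 14 and immortalised by growth from clonal density. All groups carried a doxycycline-inducible construct. On collagen-coated plates there were 5 groups, with empty vector, IDH1 WT, IDH1 R132C, IDH2 WT and IDH2 R172K, and on uncoated plates 2 groups, with empty vector and IDH1 R132C. Each group had 2 cultures. IDH1 and IDH2 are isocitrate dehydrogenases of the cytosol and of mitochondria, and R132C and R172K are substitutions found in tumours. The protocol gives doxycycline at 25 ng/mL for the IDH1 experiments and up to 5 days on uncoated dishes for hepatocyte differentiation, while the labels name neither the days of each culture, nor which cultures received doxycycline, nor the species of the introduced sequences. The cells are an immortalised line in culture, and plate coating cannot be told apart from the days spent on it.

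Blood clots when thrombin, made from prothrombin (F2) by activated factor X (F10) with factor V (F5) as cofactor, cuts fibrinogen into fibrin. Factor VII (F7) starts the cascade with tissue factor, antithrombin (Serpinc1) and activated protein C (Proc) restrain it, and plasmin made from plasminogen (Plg) dissolves the clot. Hepatocytes secrete nearly all of these proteins into plasma, prothrombin, factors VII and X and protein C need vitamin K for their modification, and fibrinogen is also an acute-phase protein that rises with interleukin-6.

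Levels are given as log2 of the probe set intensity, and a level is called near background where it lay at or under the lower quartile of its array, which was 4.72 to 4.81. By that measure Fgg, F2, F7, F10 and Serpinc1 were near background on all 14 arrays, which makes 5 of the 10 genes, or 50%, against 2160 of 12393 genes, or 17.4%. Fga was near background on 13 arrays, F5 on 11, Plg on 10 and Fgb on 7. Proc was near background on 0 arrays, and its mean stood at percentile 66.7 of all genes. Array medians lay between 134.9 and 148.3 intensity units, the 2 arrays of a group had r = 0.994 to 0.998 over all genes, and the 2 arrays per group limit the precision of every value. Of 10 hepatoblast and fetal liver markers, 1 or 2 were near background in each group, with Krt8 and Krt18 at log2 13.82 to 14.35 and Afp at 9.09 to 11.63 over all cultures. Of 8 hepatocyte markers, Tat, Cps1, Cyp2e1 and G6pc were near background in all 7 groups, and Alb ranged from 4.29 to 5.21. The remaining markers, Ttr, Apoa1 and Apob, together held most of the list's summed intensity, which was 4176 to 4662 in vector cells on collagen.

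The fibrinogen genes are neighbours in the mouse genome, in the order Fgg, Fga, Fgb with no other protein-coding gene between them. Their upstream sequences are shown because the chains form 1 protein and yet gave different signals here. In each, the 150 bases just before the start of the gene are written 5′ to 3′ on the strand of that gene, from RefSeq (GRCm38.p6). Capitals mark a C/EBP type motif (TTGCNNAA) or an IL-6 type motif (CTGGGAA), the latter a STAT3-binding element of acute-phase genes. The motif in Fga lies on the opposite strand, so its capitals are the reverse complement. Fgg is at chr3:83007574-83007723 on the plus strand, Fga at chr3:83026003-83026152 on the plus strand and Fgb at chr3:83049864-83050013 on the minus strand.
Fgg: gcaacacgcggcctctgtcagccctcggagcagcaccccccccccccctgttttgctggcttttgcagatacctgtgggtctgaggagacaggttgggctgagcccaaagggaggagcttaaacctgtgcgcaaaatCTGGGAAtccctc
Fga: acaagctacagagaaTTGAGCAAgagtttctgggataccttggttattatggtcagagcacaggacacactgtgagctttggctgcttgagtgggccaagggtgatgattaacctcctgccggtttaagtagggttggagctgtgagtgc
Fgb: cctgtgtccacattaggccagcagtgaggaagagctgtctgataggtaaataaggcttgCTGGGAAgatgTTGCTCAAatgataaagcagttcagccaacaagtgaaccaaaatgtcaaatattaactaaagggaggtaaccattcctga

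The window searched was 300 bases, from 250 before to 50 after the start, on both strands, and the table held it for 8 of the 10 genes, without Proc and Plg. Fgb held both of these motifs, the C/EBP type at -80 to -73 and the IL-6 type at -91 to -85. Fga held the C/EBP type alone, on the opposite strand at -135 to -128. Fgg held the IL-6 type alone, at -13 to -7. Serpinc1 had a C/EBP type at 5 to 12, counted after the start, and in the windows of F2, F5, F7 and F10 none of these letters was found. None of the 8 held the HNF4A type CAAAGTCCA. Of 32851 promoters in the table, 10.8% held the C/EBP type, 11.1% the IL-6 type and 0.475% the HNF4A type. Both motifs of Fgb were held by 1.2%. That pair was taken from Fgb itself, and a link of the motifs to its rise was not tested. A match is a match of letters only, and sites of other liver factors, such as HNF1, are neither marked nor reported here.

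Fibrinogen beta chain was the member that moved most, and it moved with the plate. On collagen Fgb lay at 4.07 and 4.92 in vector cultures, at 3.83 and 4.60 with IDH1 WT, at 4.52 and 4.98 with IDH1 R132C, at 4.16 and 4.80 with IDH2 WT and at 3.82 and 4.03 with IDH2 R172K. On uncoated plates it lay at 7.35 and 7.76 in vector cultures and at 6.69 and 7.04 with IDH1 R132C. All 4 uncoated cultures were above all 10 collagen cultures, of which 7 were near background. Fgb rose by 3.06 (SE 0.31) on the log2 scale in vector cells, 8.32-fold, with an adjusted p of 1.96e-05. In R132C cells it rose by 2.11 (SE 0.31), 4.32-fold, adjusted p = 0.000421. Because the RNA came from whole cultures, more cells with the transcript and more transcript per cell cannot be told apart, here and for every gene below. The collagen level is close to background, so each fold is a ratio of measured signals. On uncoated plates the R132C cultures were both below the vector cultures, by 0.69 (SE 0.31), but this was not past the threshold (adjusted p = 0.363). The difference between the 2 plate effects was -0.95 (SE 0.44, 95% interval -1.91 to 0.017, adjusted p = 0.911).

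The alpha chain moved less and stayed near background. Fga lay at 3.74 and 3.99 in vector cells on collagen and at 4.49 and 4.87 on uncoated plates, and it was at 3.85 and 4.12 in R132C cells on collagen and at 3.94 and 4.48 on uncoated plates. The higher of the uncoated vector cultures was the single value of 14 above its array's lower quartile. In vector cells Fga rose by 0.81 (SE 0.20), 1.76-fold, adjusted p = 0.00835. That call was lost without vector collagen replicate 1 (0.69, adjusted p = 0.0786) and without vector uncoated replicate 1 (0.62, adjusted p = 0.09997). In R132C cells the cultures overlapped and the change was 0.22 (SE 0.20, adjusted p = 0.499). The 2 effects differed by -0.60 (SE 0.29, 95% interval -1.22 to 0.024, adjusted p = 0.934). The other collagen groups ran from 3.81 to 4.35.

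No rise was measured for the gamma chain. Fgg lay between 3.44 and 3.97 on all 14 arrays, under the lower quartile throughout. On uncoated plates it was at 3.72 and 3.74 in vector cells and at 3.55 and 3.56 with R132C. The R132C pair was below its collagen cultures, at 3.88 and 3.92, by 0.35 (SE 0.14) without overlap, and this did not pass the threshold (adjusted p = 0.0852). In vector cells the change was -0.07 (SE 0.14, adjusted p = 0.785). Fgg was measured by 1 probe set, and at this level a low signal does not show that the transcript is absent.

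**Figure D1:**
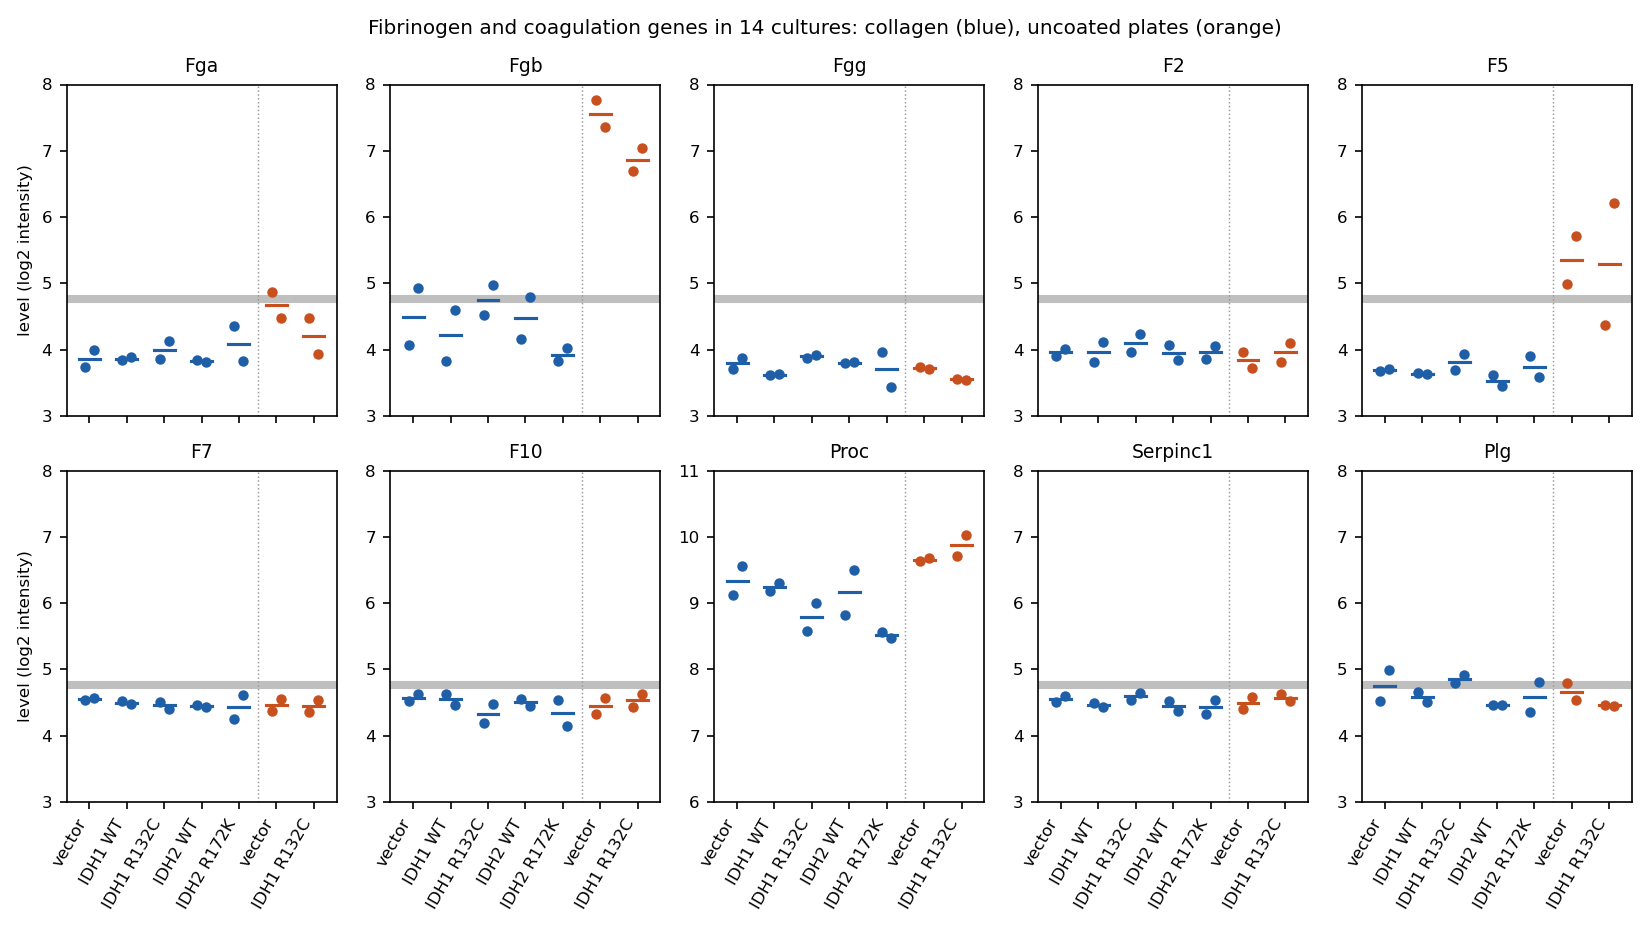
Level of each of the 10 genes (log2 intensity, vertical axis) in the 14 cultures of 7 groups (horizontal axis). Points are cultures, short lines are means of 2, blue is collagen, orange is uncoated, and the grey band is the range of the lower quartiles of the arrays, 4.72 to 4.81. The Proc panel has its own scale, from 6 to 11. Fgb lies above the band in all 4 uncoated cultures and F5 in 3 of them, Proc lies above it everywhere, and Fgg, F2, F7, F10 and Serpinc1 lie under it in every culture.

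Among the procoagulant factors only the cofactor, factor V, showed a call. F5 lay between 3.45 and 3.94 in all 10 collagen cultures, near background. On uncoated plates it was at 4.99 and 5.72 in vector cells and at 4.37 and 6.22 with R132C, so the R132C cultures lay far apart (5.30 ± 1.31, SD, n = 2) and one of them was near background. F5 rose by 1.66 (SE 0.41) in vector cells, 3.15-fold, adjusted p = 0.00851. In R132C cells it rose by 1.48 (SE 0.41), 2.80-fold, adjusted p = 0.0182. R132C and vector cultures overlapped on uncoated plates (difference -0.06, SE 0.41, 95% interval -0.95 to 0.84, adjusted p = 0.985).

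These F5 calls depended on single arrays, in R132C cells more than in vector cells. The R132C call was lost without uncoated replicate 2, where the rise was 0.56. It was also lost without collagen replicate 1 (rise 1.36) and without collagen replicate 2 (rise 1.61). Without uncoated replicate 1 the rise was 2.41. Each of these fits left 1 culture in a group, so only the sizes are given. The vector call held in 11 of 12 alternatives and was lost without uncoated replicate 2, where the rise was 1.29. In a limma fit to only the vector groups the rise had an SE of 0.22 (adjusted p = 0.00321). In a limma fit to only the R132C groups the SE was 0.48 and the call was lost (adjusted p = 0.0507). The other F5 probe set, which had the lower mean, varied less. On uncoated plates it lay at 4.51 and 5.11 in vector cells and at 4.501 and 5.145 with R132C. With all non-control probe sets tested singly, it rose by 1.07 (SE 0.20, adjusted p = 0.00163) in vector cells and by 0.98 (SE 0.20, adjusted p = 0.00367) in R132C cells.

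For prothrombin and the other proteases the arrays gave a near-background signal in every culture. F2 ran from 3.73 to 4.24, F7 from 4.25 to 4.61 and F10 from 4.14 to 4.63. The group means of F2 spanned 0.26, those of F7 0.12 and those of F10 0.25. On uncoated plates against collagen the changes of these 3 genes ran from -0.14 to 0.20, with adjusted p from 0.390 to 0.978. The other 2 probe sets of F10 changed by -0.05 and 0.05 in vector cells and by 0.03 and -0.02 in R132C cells. Antithrombin gave the same picture, with Serpinc1 between 4.33 and 4.65 and changes of -0.07 and -0.02 (adjusted p = 0.756 and 0.933).

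Protein C, the zymogen whose active form cuts factors Va and VIIIa, was the one gene of the 10 that was well above background in all groups. On collagen Proc lay at 9.12 and 9.56 in vector cells, at 9.19 and 9.31 with IDH1 WT, at 8.58 and 9.01 with IDH1 R132C, at 8.82 and 9.50 with IDH2 WT and at 8.48 and 8.57 with IDH2 R172K. On uncoated plates it lay at 9.63 and 9.68 in vector cells and at 9.71 and 10.03 with R132C. Its order of means from high to low was R132C uncoated, vector uncoated, vector collagen, IDH1 WT, IDH2 WT, R132C collagen and R172K. The cultures of vector, IDH1 WT and IDH2 WT overlapped, as did those of IDH2 WT and R132C on collagen.

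Proc rose with the plate in R132C cells, by 1.08 (SE 0.21), 2.12-fold, adjusted p = 0.00236, a call that held under all 13 alternatives. In vector cells the uncoated cultures were also above the collagen ones, by 0.32 (SE 0.21), which did not pass (adjusted p = 0.313) and was 0.099 without vector collagen replicate 1 and 0.53 without replicate 2. The difference between the effects was 0.76 (SE 0.30, 95% interval 0.12 to 1.41), with an unadjusted p of 0.0238 and an adjusted p of 0.706. On uncoated plates both R132C cultures were above both vector cultures, which did not pass (difference 0.22, SE 0.21, 95% interval -0.24 to 0.67, adjusted p = 0.797).

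Plasminogen stayed close to background. Plg ran from 4.36 to 4.99 over the 14 arrays, and was at 4.53 and 4.79 in vector cells on uncoated plates. With R132C it was at 4.79 and 4.91 on collagen and at 4.45 and 4.46 on uncoated plates, lower by 0.39 (SE 0.17) without overlap, which did not pass (adjusted p = 0.117).

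Counted together, Fga, Fgb and F5 rose and 0 of the 10 genes fell with the uncoated plate in vector cells, where 15.1% of all genes rose and 14.2% fell. In R132C cells Fgb, F5 and Proc rose and 0 fell, where 13.6% of all genes rose and 12.3% fell. The 0 falls came with 3 members at an unadjusted p under 0.05 in vector cells, all of them the rises, and 5 in R132C cells, which included the lower Fgg and Plg. The median change of the members was -0.07 in vector cells against -0.02 over all genes, and 0.10 against -0.03 in R132C cells. With 3 of 10 genes rising in each kind of cell, nothing particular to clotting genes is read from these counts.

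**Figure D2:**
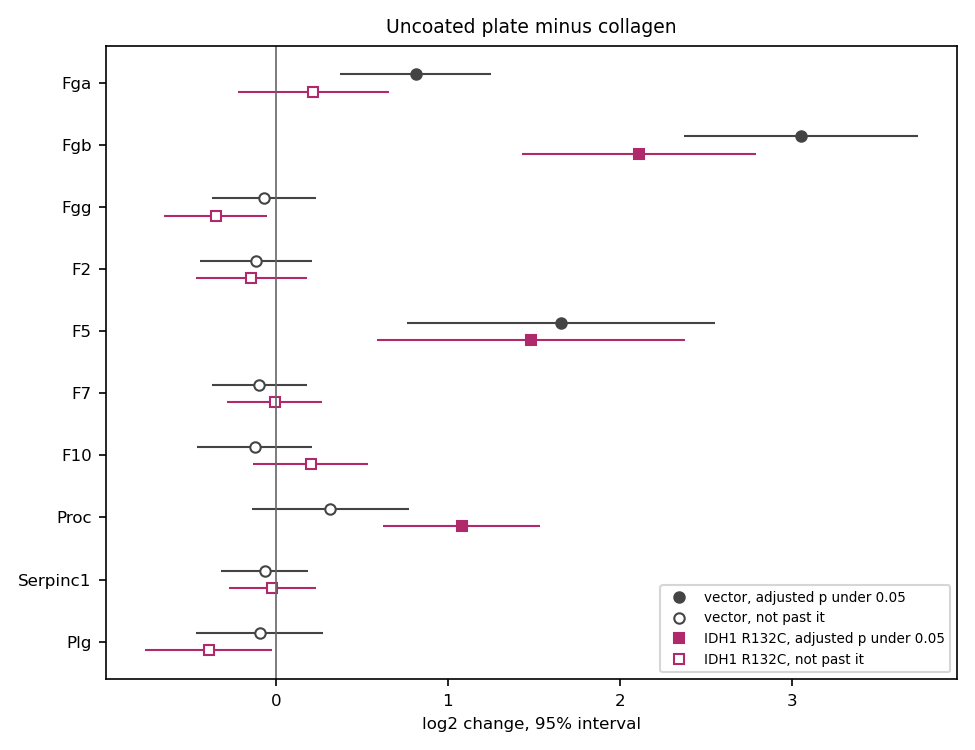
Change of each gene on uncoated plates against collagen (log2, horizontal axis) in vector cells (circles) and R132C cells (squares), with 95% intervals from the fit to all 14 arrays. Filled marks passed an adjusted p of 0.05. Fgb lies furthest right at 3.06 and 2.11, F5 follows at 1.66 and 1.48, and the rest but Fga and Proc lie within 0.39 of 0.

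No member was called for the difference between the plate effects or for R132C against vector cells on uncoated plates. For the difference between the plate effects, 0.25% of all genes were called and 0 of the 10, with 1 at an unadjusted p under 0.05, which was Proc. For R132C against vector cells on uncoated plates, 2.39% of all genes were called and 0 of the 10, with 2 at an unadjusted p under 0.05. These were Fgb and Fga, and Fga was lower by 0.47 (SE 0.20, adjusted p = 0.320) with both R132C cultures below both vector cultures. The plate effects in vector and R132C cells use separate cultures.

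On collagen, both mutants had lower protein C signal than their wild types, though neither difference passed the threshold. Proc was lower by 0.46 (SE 0.21) with IDH1 R132C than with IDH1 WT (adjusted p = 0.665) and by 0.64 (SE 0.21) with IDH2 R172K than with IDH2 WT (adjusted p = 0.1503). In each pair both mutant cultures were below both wild-type cultures, which 2 cultures against 2 can show easily by chance. Single arrays moved these sizes, the first to -0.24 without R132C replicate 1 and the second to -0.30 without IDH2 WT replicate 2 or -0.97 without IDH2 WT replicate 1. The mean of the 2 differences was -0.55 (SE 0.15, 95% interval -0.87 to -0.22, adjusted p = 0.0650). That mean ran from -0.72 without IDH2 WT replicate 1, where it passed (adjusted p = 0.0255), to -0.38 without IDH2 WT replicate 2 (adjusted p = 0.248). With the replicate number as a block it also passed, at the same size (adjusted p = 0.00947), as did the R172K difference alone (adjusted p = 0.0361). The 2 mutant effects on Proc differed by -0.18 (SE 0.30, 95% interval -0.83 to 0.46, adjusted p = 0.914).

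For the fibrinogen beta chain the 2 mutant differences had opposite signs, at levels near background. Fgb differed by 0.54 (SE 0.31) between IDH1 R132C and IDH1 WT, with overlapping cultures (adjusted p = 0.767), and by -0.55 (SE 0.31) between IDH2 R172K and IDH2 WT, without overlap (adjusted p = 0.392). The difference between these was -1.09 (SE 0.44, unadjusted p = 0.0297, adjusted p = 0.839). F5 differed by 0.18 and 0.21 (adjusted p = 0.970 and 0.823) and Fga by 0.12 and 0.27 (adjusted p = 0.956 and 0.531). For Fgg the R132C cultures were above the IDH1 WT cultures by 0.28 (SE 0.14, adjusted p = 0.697). Plg was 0.26 higher (SE 0.17, adjusted p = 0.814) in that pair. None of the 10 was called in any of these comparisons. With IDH1 R132C 0.0484% of all genes were called, with IDH2 R172K 1.73%, for the mean of both mutants 3.61% and for their difference 0%. At an unadjusted p under 0.05 there was 1 member in each of the 4, namely Proc in the first 3 and Fgb in the last. Without IDH2 R172K replicate 2 the mean of both mutants called 1 member, Fgg, at 0.22 (adjusted p = 0.0431).

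**Figure D3:**
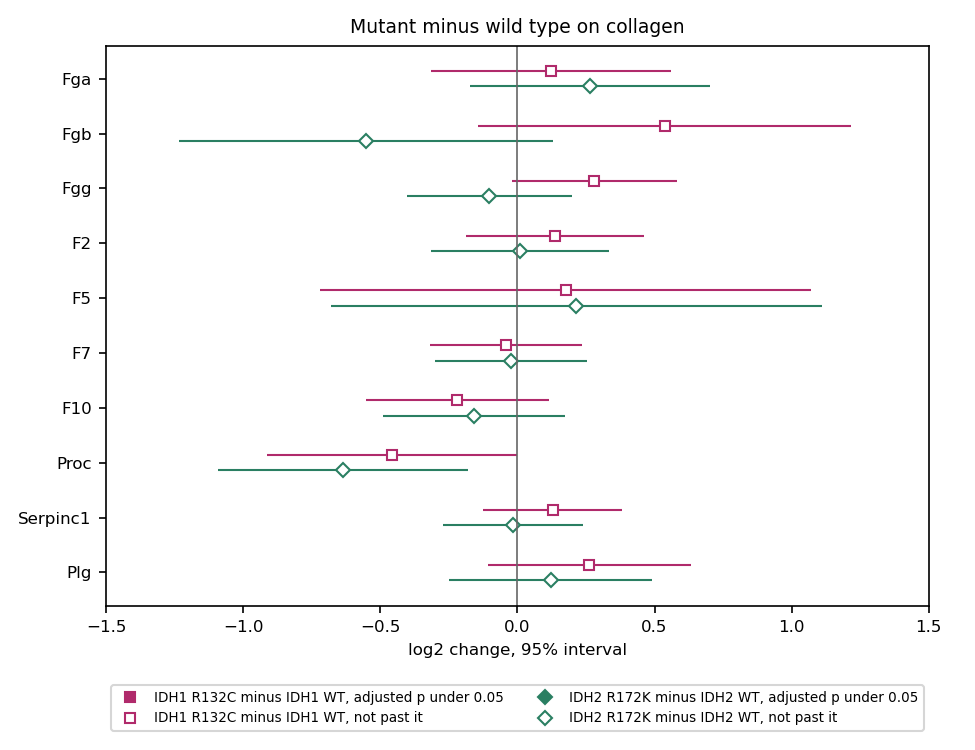
Change of each gene with the mutant against the wild type of the same enzyme on collagen (log2, horizontal axis), for IDH1 R132C (squares) and IDH2 R172K (diamonds), with 95% intervals. All marks are open because none passed an adjusted p of 0.05. Proc lies left of 0 for both mutants, at -0.46 and -0.64, and Fgb lies on opposite sides, at 0.54 and -0.55.

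The wild-type enzymes left no call either. Against vector on collagen, 0% of all genes were called by the limma fit with IDH1 WT and 0% with IDH2 WT, and 0 of the 10 had an unadjusted p under 0.05 in each, while 128 and 116 genes of all did. The largest member change was -0.29 (SE 0.17) for Plg with IDH2 WT. Proc differed by -0.09 (SE 0.21) with IDH1 WT and by -0.18 (SE 0.21) with IDH2 WT.

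Genes that work with these proteins were measured from lists of the pathway. In the protein C system, receptors fell and the cofactor rose on uncoated plates. Thrombomodulin (Thbd), the receptor on which thrombin activates protein C, lay at 10.04 and 10.42 in vector cells on collagen and at 8.32 and 8.53 on uncoated plates. It fell by 1.81 (SE 0.21), 3.50-fold lower, adjusted p = 5.12e-05, and in R132C cells by 1.06 (SE 0.21, adjusted p = 0.00292), or 0.66 without R132C uncoated replicate 2. The endothelial protein C receptor (Procr), which presents protein C to that complex, fell by 0.93 (SE 0.11, adjusted p = 4.65e-05) in vector cells and by 0.73 (SE 0.11, adjusted p = 0.000392) in R132C cells. Protein S (Pros1), the cofactor of activated protein C, rose by 0.88 (SE 0.26, adjusted p = 0.0238) and 1.07 (SE 0.26, adjusted p = 0.00978). The Pros1 calls were lost when any of 5 arrays was left out: in vector cells, collagen replicate 1 (0.44, adjusted p = 0.285), uncoated replicate 1 (adjusted p = 0.102) or uncoated replicate 2 (adjusted p = 0.0866), and in R132C cells, collagen replicate 1 (adjusted p = 0.131) or uncoated replicate 1 (adjusted p = 0.0555). The vector call was also lost with only the groups compared (adjusted p = 0.0514).

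Gas6, a vitamin K-dependent relative of protein S that binds the TAM receptors, rose by 1.47 (SE 0.24, adjusted p = 0.000451) in vector cells and by 1.76 (SE 0.24, adjusted p = 0.000213) in R132C cells. Over all genes 15.1% rose and 14.2% fell in vector cells, and 13.6% rose and 12.3% fell in R132C cells. Of 14 anticoagulant and receptor genes, 3 rose and 3 fell in each kind of cell. The median change was 0.05 in vector and 0.02 in R132C cells. The others in these counts, named after their values were seen, were Anxa8 (0.60) and Serpind1 (-0.74) in vector cells and Tfpi (0.36) and Serpind1 (-0.48) in R132C cells. The Serpind1 call in vector cells was lost without uncoated replicate 1 (adjusted p = 0.0645), and both R132C calls were lost without any 1 of the 4 arrays (adjusted p 0.0808 to 0.220), for Tfpi also with the mean of its probe sets (adjusted p = 0.0960) and for Serpind1 with cyclic loess (adjusted p = 0.0588). Of 10 endothelial markers, 7 or 8 were near background in each group, Pecam1, Tek and Vwf among them. Their summed intensity was 295 to 299 in vector cells on uncoated plates against 318 to 332 on collagen, and 309 to 324 against 336 to 356 in R132C cells. The part of such cells in the fall of Thbd and Procr was not tested.

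The enzymes that make and recycle vitamin K-dependent proteins were measured well. The carboxylase Ggcx lay at 6.07 and 6.11 in vector cells on collagen and at 6.74 in both uncoated cultures, a rise of 0.65 (SE 0.15, adjusted p = 0.00449). In R132C cells it rose by 0.69 (SE 0.15, adjusted p = 0.00394), or 0.50 without uncoated replicate 2, which was not past the threshold (adjusted p = 0.0647). Vkorc1, the reductase that warfarin blocks, rose by 0.82 (SE 0.12, adjusted p = 0.000233) and 0.72 (SE 0.12, adjusted p = 0.000810). Calu, which encodes calumenin, an inhibitor of the carboxylase, fell by 0.45 (SE 0.10, adjusted p = 0.00378) in vector cells and differed by -0.16 (SE 0.10, adjusted p = 0.265) in R132C cells. The list had 5 measured genes, of which 2 rose and 1 fell in vector cells and 2 rose in R132C cells. Its medians were 0.15 and 0.35. Of all genes, 15.1% rose and 14.2% fell in vector cells, and 13.6% rose and 12.3% fell in R132C cells.

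Of the other coagulation factors, 9 of 11 were near background in every group, against 5 of the 10 members. The list held 1 call in each kind of cell, a fall. Of all genes 14.2% fell in vector cells and 12.3% in R132C cells. Tissue factor (F3), the cell-surface trigger of clotting and no plasma protein, lay at 10.20 and 10.26 in vector cells on collagen and at 9.37 and 9.82 on uncoated plates. It fell by 0.63 (SE 0.21, adjusted p = 0.0388) in vector cells and by 0.83 (SE 0.21, adjusted p = 0.0118) in R132C cells. Each call was lost without 3 of the 4 arrays compared, either collagen replicate or uncoated replicate 2, where the adjusted p was 0.0929 to 0.286 in vector cells and 0.0560 to 0.146 in R132C cells. F12, which starts the contact pathway, did not pass (-0.13 in vector cells, adjusted p = 0.502, and -0.03 in R132C cells, adjusted p = 0.881). The list medians were -0.08 and -0.10. The thrombin receptor F2r fell by 1.11 (SE 0.14, adjusted p = 8.20e-05) in vector cells, from 13.15 and 13.21 to 11.81 and 12.34. In R132C cells it fell by 0.45 (SE 0.14, adjusted p = 0.0302), which was lost without any 1 of the 4 arrays (adjusted p 0.0944 to 0.149), with the mean of its probe sets (adjusted p = 0.1003) or with no intensity trend (adjusted p = 0.0516). The other 2 receptors of that list were near background, and its medians were -0.14 and -0.13.

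In the fibrinolysis list, Plgrkt, a membrane receptor for plasminogen, rose by 1.14 (SE 0.11, adjusted p = 1.58e-05) in vector cells and by 0.77 (SE 0.11, adjusted p = 0.000410) in R132C cells. Urokinase (Plau), which activates plasminogen, lay at 8.05 and 8.25 in vector cells on collagen and at 7.27 in both uncoated cultures, a fall of 0.88 (SE 0.15, adjusted p = 0.000608), or of 0.54 with the mean of its probe sets. In R132C cells Plau differed by -0.07 (SE 0.15, adjusted p = 0.782). The difference between the 2 plate effects was 0.80 (SE 0.21, adjusted p = 0.239), so it is not shown that they differ. S100a10 and Anxa2, which form a plasminogen-binding complex at the cell surface, fell by 0.49 (SE 0.08, adjusted p = 0.000730) and 0.22 (SE 0.06, adjusted p = 0.0161) in vector cells. In R132C cells they fell by 0.34 (SE 0.08, adjusted p = 0.00875) and 0.22 (SE 0.06, adjusted p = 0.0195). The S100a10 call in R132C cells was lost without either collagen replicate or without uncoated replicate 2 (adjusted p 0.0507 to 0.101). The Anxa2 calls were lost in vector cells without either collagen replicate or without uncoated replicate 2 (adjusted p 0.0724 to 0.123) and in R132C cells without any 1 of the 4 arrays (adjusted p 0.0532 to 0.139). Both were also lost with the mean of its probe sets (adjusted p = 0.113 and 0.176) and with no intensity trend (adjusted p = 0.0820 and 0.0921), and the vector call with cyclic loess (adjusted p = 0.0523). Of 8 measured genes, 1 rose and 3 fell in vector cells and 1 rose and 2 fell in R132C cells. The medians were -0.18 and -0.12. In vector cells 15.1% of all genes rose and 14.2% fell, and in R132C cells 13.6% rose and 12.3% fell.

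**Figure D4:**
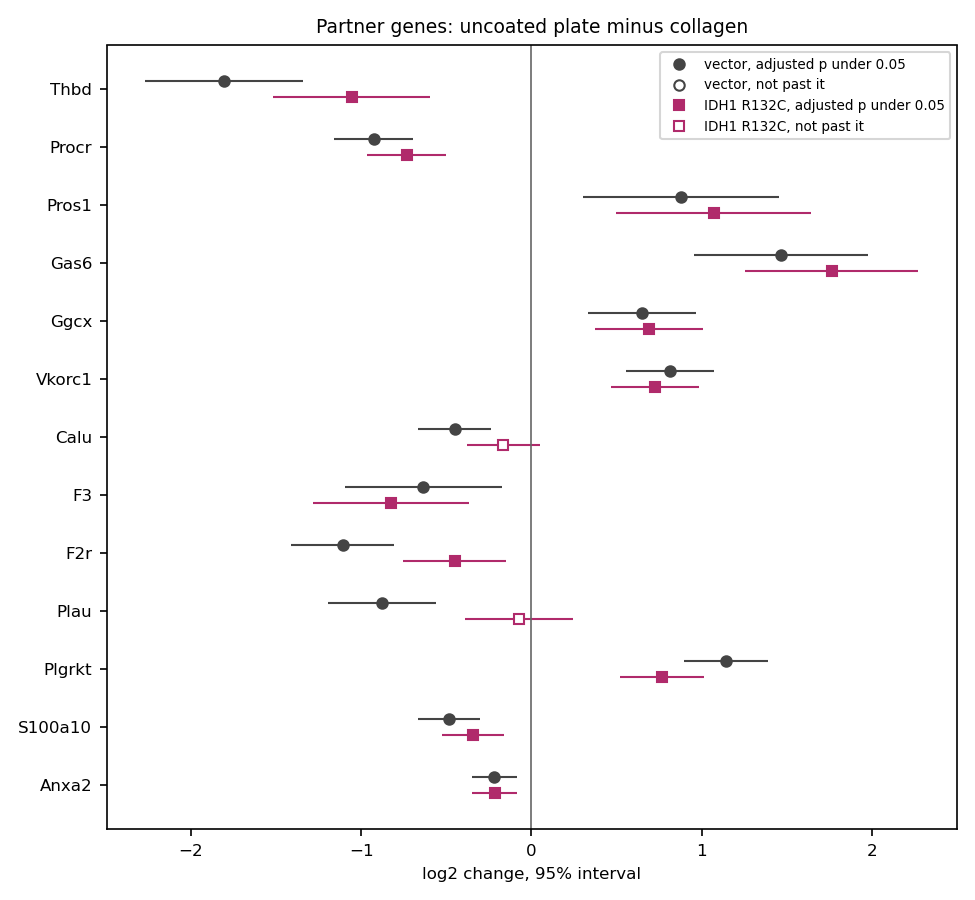
Change of 13 partner genes on uncoated plates against collagen (log2, horizontal axis) in vector cells (circles) and R132C cells (squares), with 95% intervals. Filled marks passed an adjusted p of 0.05. Thbd and Procr lie left of 0, at -1.81 and -0.93 in vector cells, while Pros1, Gas6, Ggcx, Vkorc1 and Plgrkt lie right of it in both kinds of cell.

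Between genotypes, 3 of these partner genes were called on uncoated plates, where 2.39% of all genes were called. The fibrinolysis list of 8 held 1 higher and 1 lower, and the 3 thrombin receptors held 1 higher. The lists of 11 other coagulation factors, 14 anticoagulant and receptor genes and 5 vitamin K genes held 0. R132C cells had less Plgrkt than vector cells, by 0.66 (SE 0.11, adjusted p = 0.00948), more Plau, by 0.62 (SE 0.15, adjusted p = 0.0476), and more F2r, by 0.63 (SE 0.14, adjusted p = 0.0367). The Plgrkt call was lost without vector or R132C uncoated replicate 1 (adjusted p = 0.148 and 0.149). The Plau call was lost without either vector replicate or R132C replicate 1 (adjusted p 0.131 to 0.457), and the F2r call without vector replicate 1 (0.36, adjusted p = 0.370) or either R132C replicate (adjusted p = 0.253 and 0.105). With only the groups compared the Plau and F2r calls were lost (adjusted p = 0.0890 and 0.118), as was Plau with the mean of its probe sets (adjusted p = 0.0620) and F2r with no intensity trend (adjusted p = 0.0672). On collagen Plgrkt was lower by 0.54 (SE 0.11, adjusted p = 0.0332) with IDH2 R172K than with IDH2 WT. That call was lost without either IDH2 WT replicate or without R172K replicate 1 (adjusted p 0.0829 to 0.293), with array weights (adjusted p = 0.263), with only the groups compared (adjusted p = 0.226) or with no intensity trend (adjusted p = 0.0568). For the mean of both mutants it was lower by 0.36 (SE 0.08, adjusted p = 0.0296), a call lost without either replicate of IDH1 WT or IDH1 R132C, without IDH2 WT replicate 2 or without R172K replicate 1 (adjusted p 0.0808 to 0.148) or with array weights (adjusted p = 0.0643).

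The list of 9 liver regulators known for these genes held transcription factors, interleukin-6 receptor genes and a feedback inhibitor of the signal. Of the 9, 5 rose and 0 fell with the uncoated plate in each kind of cell, and the other 4 did not pass. Over all genes 15.1% and 13.6% rose. The median changes were 0.36 and 0.39, against -0.02 and -0.03 over all genes. Cebpa, a liver transcription factor that binds C/EBP motifs, rose by 2.73 (SE 0.20, adjusted p = 1.74e-06) in vector cells and by 1.95 (SE 0.20, adjusted p = 5.82e-05) in R132C cells. Cebpd, a C/EBP factor of the acute phase, rose by 2.40 (SE 0.28, adjusted p = 5.28e-05) and 1.59 (SE 0.28, adjusted p = 0.00139), or by 1.34 and 0.91 with the mean of its probe sets. Stat3, which carries the interleukin-6 signal, rose by 0.85 (SE 0.15, adjusted p = 0.000964) and 0.76 (SE 0.15, adjusted p = 0.00279), and by 0.56 in vector cells without collagen replicate 1. The interleukin-6 receptor Il6ra rose by 0.90 (SE 0.15, adjusted p = 0.000738) in vector cells, or by 0.50 with the mean of its probe sets, and differed by 0.39 (SE 0.15, adjusted p = 0.0821) in R132C cells. The other calls were Il6st, the signalling subunit of that receptor, at 0.35 and 0.36 (adjusted p = 0.0330 and 0.0325), and in R132C cells Socs3, a feedback inhibitor of the signal, at 0.44 (adjusted p = 0.0330). The Il6st calls were lost with the mean of its probe sets (0.14 and 0.20, adjusted p = 0.384 and 0.217), with only the groups compared (adjusted p = 0.0572 and 0.0657), and without any 1 of the 4 arrays in vector cells or without R132C collagen replicate 1 or uncoated replicate 2 (adjusted p 0.0787 to 0.311). The Socs3 call was lost without R132C collagen replicate 1 or either uncoated replicate (adjusted p 0.0644 to 0.261). Hnf4a, which governs hepatocyte genes, did not pass with the plate (0.15 and 0.32, adjusted p = 0.4004 and 0.0579). It was lower by 0.66 (SE 0.11, adjusted p = 0.0162) with IDH2 R172K than with IDH2 WT, a call lost without either IDH2 WT replicate or R172K replicate 1 (adjusted p 0.0637 to 0.179), with array weights (adjusted p = 0.235) or with only the groups compared (adjusted p = 0.0872). It was lower by 0.54 (SE 0.08, adjusted p = 0.00462) for the mean of both mutants. A regulator's change beside a member's does not show that it acts on that member.

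Platelets carry factor V and fibrinogen, so their markers are set beside the rises of Fgb and F5. Of 8 megakaryocyte and platelet markers, 0 were called with the plate, and Gp5 was near background in all 7 groups. Their summed intensity was 399 to 403 in vector and 397 to 401 in R132C cells on uncoated plates, against 431 to 499 and 440 to 480 on collagen. The part of such cells in the rises was not tested. Of 7 blood cell markers, Ptprc rose with the plate in both kinds of cell and the other 6 were not called. Their summed intensity was 1135 to 1305 against 1044 to 1200 in vector cells, and 841 to 887 against 835 to 943 in R132C cells, while Hba-a1 and Itgam were near background in all groups. The part of blood cells in these results was not tested. Of the 8 hepatocyte markers, Ttr and Apob rose in both kinds of cell and G6pc fell by 0.34 (SE 0.11, adjusted p = 0.0380) in R132C cells at a level near background, while the other 6 in vector cells and 5 in R132C cells did not pass. The median change of the list was 0.07 in vector and -0.10 in R132C cells. Its summed intensity, to which bright genes add most, was 8739 to 11512 against 4176 to 4662 in vector cells and 5714 to 10424 against 3079 to 3816 in R132C cells.

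The genes with the pattern most like that of Fgb over the 7 group means were Hacd1, Cmtm8 and Mt1, each with a Pearson r of 0.998. Cmtm8 ran from 5.99 to 6.998 on collagen and stood at 10.27 and 9.43 in vector and R132C cells on uncoated plates. For F5 these were Gatad2b (0.999), Rnf130 (0.999) and Atp11a (0.998), and for Proc Sbk1 (0.991), Tm9sf2 (0.990) and Adgre5 (0.990). The 7 points fall into 5 collagen groups and 2 uncoated groups, so for Fgb and F5 the coefficient mostly restates the gap between the plates.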

How the data were processed

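The deposited values are probe set intensities on a linear scale, made by the authors with RMA, a robust average over the probes of a set, per the submitters' processing notes. Its version and settings are not given in the sources used here. Log2 of the deposited intensity was taken. The arrays were Affymetrix Mouse 430Av2, with 2 cultures in each of 7 groups, per the labels and the series text. Of 22690 probe sets, 64 were controls, 20380 carried 1 gene symbol in the platform annotation, 691 carried several and 1555 were not listed there. Each gene was represented by its brightest single-symbol probe set (12393 genes, 4956 of them with a choice), and the 10 members had 13 probe sets.

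A linear model with 1 mean for each of the 7 groups was fitted over the 14 arrays using R 4.3.3 and limma 3.58.1 (lmFit, eBayes with an intensity trend; residual degrees of freedom 7, prior 5.67). It gave 10 comparisons, with Benjamini-Hochberg adjustment over 12393 genes and a threshold of 0.05, and all adjusted p-values and intervals are two-sided. With few cultures per group, the spread between cultures was pooled over all 7 groups and moderated across genes. The p-values rest on that spread, not on the compared cultures alone. The fit was tested on simulated data.

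The members and the gene lists were chosen with earlier results of these data known. All members are named. From a list, up to 4 called genes per comparison with the largest change are named, and where fewer than 2 passed, up to 2 of the brightest. Kng2, Serpine2, Cpb2, Eno1, Vkorc1l1 and F2rl1 were not analysed here, and some items of the plan are not reported here. The mesenchyme and biliary marker lists were counted as well: of 8 mesenchyme genes, 1 fell in vector cells (Col1a1) and 0 in R132C cells, and of 4 biliary genes, Sox9 and Cftr rose and Krt7 and Krt19 fell in vector cells and Sox9 rose and Krt7 fell in R132C cells. Of 10 hepatoblast genes, 1 rose (Epcam) and 1 fell (Afp) in each. On collagen 0 of these 10 were higher and 3 lower with IDH2 R172K, where 1.73% of all genes were called. For the mean of both mutants 1 was higher and 3 lower (3.61% of all genes). In R132C against vector cells on uncoated plates, 1 was higher and 1 lower (2.39%). There 1 of 8 hepatocyte markers was lower, as was 1 in the difference between the plate effects (0.25%). Likeness was taken over the group means, among genes above the lower quartile, for members whose means spanned at least 1. Alternatives tried were averaging the probe sets of a gene, every probe set by itself, genes above the 30th percentile of level, cyclic loess, centred arrays, no intensity trend, arrays of the compared groups alone, weights for arrays, a replicate block and leaving out each array.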

Additional observations from a re-analysis of the deposited data

How the results depend on the processing

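The changes of Fga, Fgb, F5 and Proc in 7 comparisons were refitted under each alternative that kept the gene. Of these values 365 kept their side of the threshold, 7 lost a call, 3 gained one and none changed the sign of a called value. Most of them were not calls in the main fit and could not lose one. In vector cells the Fga call held in 10 of 12 alternatives and the F5 call in 11 of 12. In R132C cells the F5 call held in 8 of 12 and the Proc call in 13 of 13. Fgb kept both plate calls in all 12 alternatives, with changes of 2.63 to 3.48 in vector cells and 1.88 to 2.34 in R132C cells. With a filter at the 30th percentile of level, 8675 genes were tested, Proc was the 1 member among them, and 0 members were called in vector cells and 1 in R132C cells. Array weights called 5 members in R132C cells, adding lower Fgg (-0.35, adjusted p = 0.0124) and Plg (-0.39, adjusted p = 0.0440), and a fit to only the groups compared called the same 2 and lost F5 (adjusted p = 0.0507); the cause was not tested. Leaving out 1 array of the groups compared gave 2 to 3 members for each plate effect, 0 to 1 for the mean of both mutants and 0 in the other 7 comparisons. Leaving out either IDH2 R172K array, which is in neither R132C group, called 4 members in R132C cells, adding Fgg (adjusted p = 0.00756 and 0.00772). Same-numbered arrays, as deviations from their group means, had r = -0.041 to 0.487 over 21 pairs, with a median of 0.16. Whether replicate numbers pair the cultures was not tested. With the replicate number as a block, the SE of the Fgb rise in vector cells was 0.23, against 0.31. With the replicate number as a block, Proc alone was called with IDH2 R172K (1 member, adjusted p = 0.0361) and for both mutants (1 member, adjusted p = 0.00947). The counts over all genes on collagen depended strongly on the setting. IDH2 R172K against IDH2 WT called 74 higher and 141 lower, or 98 and 100 with centred arrays. With array weights, 0.33 for each R172K array, it called 3 and 6, and with the replicate block 142 and 338. Both mutants called 146 and 302, or 189 and 233 with cyclic loess, 67 and 142 with array weights and 271 and 521 with the block. Both comparisons called most genes without R172K replicate 2, a fit with 1 array of that group. Levels near background limit what can be read for 9 of the 10 genes on collagen.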
